A study of Mus musculus with 6 samples.

Results

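This section describes 10 genes of the cartilage and tendon lineages in cultured mouse cells, out of the 55487 genes in the deposited count table. The members are Cnmd, Tnmd, Sox9, Sox5, Sox6, Acan, Comp, Scx, Mkx and Matn2. They were chosen by the difference between high and normal glucose already measured in these samples, in which Cnmd stood out, together with general knowledge of the lineages. Their differences between the groups are therefore given as values without a test. Of the 10 genes, 9 had enough counts to pass the filter on low counts, and each of the 9 passed it in all 3 samples of both groups. Acan did not pass in any sample.

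The cultures were labelled as endothelial cells (ECs) from the skin of C57BL/6 mice, isolated with magnetic beads against CD31, the protein encoded by Pecam1. Skin of 4 to 6 mice aged 2 to 3 months went into an isolation. The study's figure legends give n = 3 per group of mice, but the sources used here do not say whether the replicates came from separate isolations, so errors and p values measure the spread between these samples alone. The normal glucose group had 3 cultures at 5 mmol/L and the high glucose group 3 cultures at 20 mmol/L, and polyA RNA was sequenced after 48 hours. Total counts were 120192466, 135253663 and 124212369 at normal glucose replicates 1, 2 and 3, and 146881356, 121930179 and 139967043 at high glucose replicates 1, 2 and 3. Values below are normalized CPM, where CPM is the field's usual unit of a gene's counts relative to the total of its sample, after scaling with edgeR's TMM method. The detection floor was set at 3 counts, which depending on the sample was 0.0204 to 0.025 CPM before this scaling, and it covers counting error only.

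The label of the cells was compared with marker genes. Pecam1 had 19, 12 and 19 counts at normal glucose and 9, 13 and 18 at high glucose. Sox17 had 0 counts in every sample, and Tie1, Emcn, Cldn5 and Robo4 had at most 10 in any sample, so that 5 of the 16 endothelial markers were at or near 0. Sox18, Erg and Esam were low too, with 3 to 11, 2 to 15 and 12 to 23 counts per sample. Other endothelial markers were well above the floor. Their lowest counts in any sample were 4457 for Flt1, 1113 for Egfl7, 576 for Kdr, 151 for Tek, 91 for Cdh5 and 73 for Vwf. The 16 markers summed to 231 ± 14 normalized CPM at normal glucose and 198 ± 3.30 at high glucose (SD, n = 3), and 68.9% of this sum was Eng, a co-receptor that other mesenchymal cells also express. The 11 fibroblast markers, led by the collagen gene Col3a1, summed to 40900 ± 1770 and 73700 ± 2460 normalized CPM (SD, n = 3). The markers of the labelled cell type were thus mixed, with several defining ones at or near the floor, and the samples are called by their glucose group below.

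Chondrocytes and tenocytes are the matrix-producing cells of cartilage and tendon. In cartilage, the transcription factor Sox9 drives the chondrocyte program, and Sox5 and Sox6 act with it on genes such as those for type II collagen and aggrecan. In tendon, the bHLH factor Scx and the homeobox factor Mkx support the genes of the fibrous matrix, and Tnmd is a widely used marker of the mature tendon cell. Cnmd encodes chondromodulin, a membrane glycoprotein of avascular cartilage whose released part inhibits the growth of ECs. Tnmd encodes tenomodulin, its closest relative. Skin is not a main site of either lineage, although its fibroblasts produce several of the same matrix proteins, and Sox9 is also known from hair follicles.

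Cnmd (ENSMUSG00000022025) lies on the minus strand of chromosome 14 of GRCm38, from 79637690 to 79662170. It had 97, 101 and 93 counts at normal glucose replicates 1, 2 and 3 and 962, 851 and 1003 counts at high glucose replicates 1, 2 and 3. On the normalized scale these were 0.775, 0.712 and 0.726 CPM against 6.78, 7.32 and 7.44 CPM. All 3 high glucose samples lay far above all 3 normal glucose samples, and the replicates of each group were close to each other. The means were 0.738 ± 0.0328 and 7.18 ± 0.351 CPM (SD, n = 3), which on the log2 scale is a difference of 3.28 (SE 0.1), or 9.73-fold. By fitted log2 fold change, Cnmd ranked 7 of the 19015 tested genes from the top. In bulk RNA, more cells that express a gene and more RNA of it per cell cannot be told apart.

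Tnmd (ENSMUSG00000031250), on the plus strand of chromosome X from 133850980 to 133865577, was measured in all samples as well. It had 641, 605 and 482 counts at normal glucose and 883, 841 and 980 at high glucose, for replicates 1, 2 and 3. The normalized values were 5.12, 4.27 and 3.76 CPM against 6.22, 7.23 and 7.27 CPM. Every high glucose sample was above every normal glucose sample, by a much smaller margin than for Cnmd. The log2 fold change was 0.66 (SE 0.12). Per kb of exon, where levels of different genes can be compared, Cnmd stood at 0.125 ± 0.0154 of the level of Tnmd at normal glucose and at 0.765 ± 0.0307 at high glucose (SD, n = 3). On this scale Tnmd was above Cnmd in every sample. Divided by the longest transcript, their means at high glucose were 5.11 for Tnmd and 5.01 for Cnmd.

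The promoters of this related pair are shown because both genes were higher in every high glucose sample. They are the 250 bases before the RefSeq start on GRCm38.p6, 5′ to 3′ on the strand of the gene. For Cnmd this is chr14:79662184-79662433 (minus strand), and for Tnmd chrX:133850758-133851007 (plus strand), of which the last 28 bases are exonic in the GENCODE annotation. Capitals mark matches to the motifs searched on both strands, which were CANNTG (the E-box that bHLH factors such as Scx bind), ACAAT and ACAAAG (core letters bound by SOX factors) and TATAAA.
Cnmd: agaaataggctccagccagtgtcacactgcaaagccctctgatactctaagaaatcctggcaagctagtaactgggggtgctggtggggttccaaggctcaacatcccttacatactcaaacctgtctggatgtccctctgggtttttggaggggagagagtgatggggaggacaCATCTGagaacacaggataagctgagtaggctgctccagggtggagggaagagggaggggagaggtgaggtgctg
Tnmd: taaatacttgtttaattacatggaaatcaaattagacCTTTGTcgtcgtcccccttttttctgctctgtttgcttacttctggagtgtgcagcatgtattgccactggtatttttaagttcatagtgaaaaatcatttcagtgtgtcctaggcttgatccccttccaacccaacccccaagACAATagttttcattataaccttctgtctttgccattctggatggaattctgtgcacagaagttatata
The Cnmd window held 1 E-box, written CATCTG, which began 75 bases before the start, and none of the SOX letters. The Tnmd window held no E-box. It had ACAAT beginning 69 bases before the start, and ACAAAG on the opposite strand, in capitals as CTTTGT, beginning 213 bases before it. Neither window held TATAAA. Among 32851 promoter windows of this length, 66.2% held CANNTG, 27.7% ACAAT, 16.5% ACAAAG and 12.4% TATAAA, so the matches are common letters and describe the sequence alone. GC content was 54.0% for Cnmd and 38.4% for Tnmd. The promoter table had entries for 5 of the 10 members, the others being Sox5, Sox6 and Acan. Sox9, Comp, Scx, Mkx and Matn2 had no entry.

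The matrix genes among the members were at very different levels. Matn2 (ENSMUSG00000022324, chromosome 15, 34306677 to 34436273) encodes matrilin 2, an adaptor protein of many connective tissues including skin. It had 35381, 38202 and 35713 counts at normal glucose and 47884, 41903 and 46775 at high glucose, or 283, 269 and 279 against 338, 360 and 347 normalized CPM. The high glucose samples were all above the normal glucose samples, with a log2 fold change of 0.33 (SE 0.051). Matn2 alone made up 83.4% of the summed normalized CPM of the 10 members.

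Comp (ENSMUSG00000031849, chromosome 8, 70373558 to 70382066) encodes cartilage oligomeric matrix protein, a member of the thrombospondin family that binds collagen fibrils in cartilage and tendon. Its counts were low, at 24, 30 and 44 at normal glucose and 129, 112 and 125 at high glucose. On the normalized scale these were 0.192, 0.211 and 0.344 CPM against 0.909, 0.963 and 0.927 CPM. The groups did not overlap, and normal glucose replicate 3 was the highest of its group. The log2 fold change was 1.90 (SE 0.22), which ranked Comp second to Cnmd among the members.

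Acan (ENSMUSG00000030607, chromosome 7, 79053483 to 79115099) encodes aggrecan, the large proteoglycan that gives cartilage its resistance to compression. It had 0, 3 and 0 counts at normal glucose and 0, 2 and 4 at high glucose. This is at or near the floor in both groups, and no fold change is given.

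**Figure D1:**
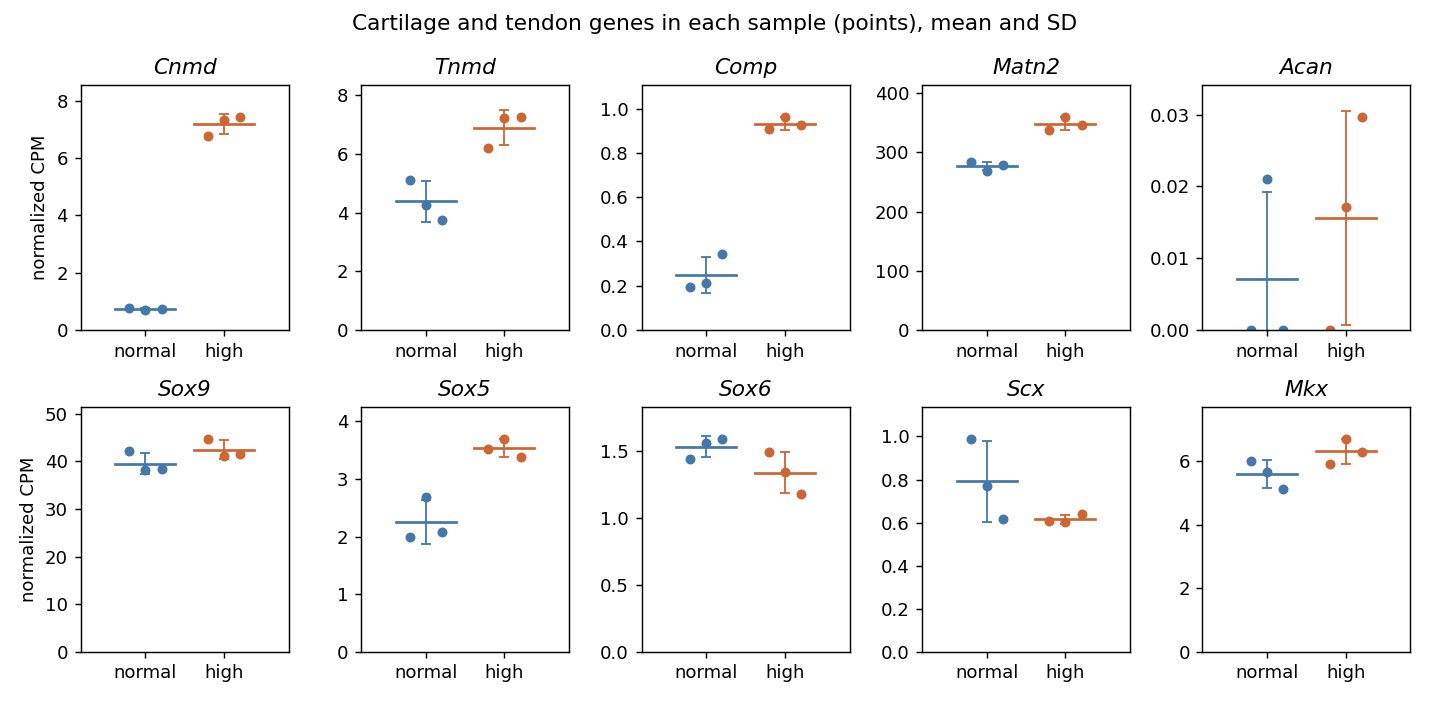
Normalized CPM of the 10 members on a linear axis, with a separate scale for each gene. Points are the 3 normal glucose (blue) and 3 high glucose (orange) samples, lines are means and bars are SDs (the lower bar of Acan is cut at 0). Cnmd is near 0.738 CPM at normal glucose and 7.18 CPM at high glucose, whereas the groups of Sox9, Sox6, Scx, Mkx and Acan overlap.

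The transcription factors of the cartilage lineage did not move as 1 unit. Sox9 (ENSMUSG00000000567, chromosome 11, 112782224 to 112787760) had 5285, 5408 and 4914 counts at normal glucose and 6357, 4790 and 5591 at high glucose. The normalized values, 42.2, 38.1 and 38.4 CPM against 44.8, 41.2 and 41.5 CPM, overlapped between the groups. The log2 fold change of Sox9 was 0.10 (SE 0.061), and with scaling by library size alone it was -0.01. Sox5 and Sox6 encode the SOXD factors that partner with Sox9.

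For Sox5 (ENSMUSG00000041540, chromosome 6, 143828425 to 144781977), the counts were 251, 381 and 265 at normal glucose and 500, 430 and 455 at high glucose. The normalized values were 2.00, 2.69 and 2.07 CPM against 3.52, 3.70 and 3.38 CPM. All high glucose samples were above the normal glucose samples, and the log2 fold change was 0.65 (SE 0.13). Sox6 (ENSMUSG00000051910, chromosome 7, 115470872 to 116038796) had between 180 and 221 counts at normal glucose and between 156 and 212 at high glucose. Its groups overlapped, with means of 1.53 ± 0.0816 and 1.34 ± 0.157 normalized CPM (SD, n = 3) and a log2 fold change of -0.19 (SE 0.13). Both SOXD genes were far below Sox9 in level. Per kb of exon, Sox5 stood at 0.0165 ± 0.00341 of Sox9 at normal glucose and at 0.0240 ± 0.00167 at high glucose, and Sox6 at 0.0108 ± 0.00115 and 0.00877 ± 0.000736 (SD, n = 3). These ratios depend on the length used, since the longest transcript gives Sox5 0.311 and Sox6 0.176 CPM per kb at normal glucose, in place of 0.157 and 0.103, and leaves Sox9 at 9.57. The exons of Sox5 share 1330 positions with Sox5os1 on the opposite strand, which had 0 counts in every sample.

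The tendon factors overlapped between the groups. Scx (ENSMUSG00000034161, chromosome 15, 76457452 to 76459458) had 124, 109 and 79 counts at normal glucose and 86, 70 and 86 at high glucose, or 0.990, 0.768 and 0.617 against 0.606, 0.602 and 0.638 normalized CPM. The spread lay mostly within normal glucose, and the lowest sample of that group was inside the range of the high glucose samples. Its log2 fold change was -0.36 (SE 0.19), and -0.19 without normal glucose replicate 1. Mkx (ENSMUSG00000061013, chromosome 18) had 751, 804 and 657 counts at normal glucose and 838, 780 and 849 at high glucose, or 6.00, 5.67 and 5.13 against 5.91, 6.71 and 6.30 normalized CPM. Here too the groups overlapped, with a log2 fold change of 0.17 (SE 0.091). Exons of Mkx share 201 positions with AC148004.2 on the same strand, and those of Matn2 share 70 with 9430069I07Rik on the opposite strand. Neither partner had more than 5 counts in any sample.

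Levels per length put the members in order. In normal glucose Matn2 was highest at 44.2 ± 1.09 normalized CPM per kb, followed by Sox9 at 9.57 ± 0.553, Tnmd at 3.24 ± 0.506 and Mkx at 1.37 ± 0.107 (SD, n = 3). Next came Cnmd at 0.400 ± 0.0178 and Scx at 0.395 ± 0.0936, whose ranges overlapped, then Sox5 at 0.157 ± 0.0262. Sox6 and Comp, at 0.103 ± 0.00550 and 0.0839 ± 0.0278, also overlapped, and Acan was last. In high glucose Cnmd stood at 3.90 ± 0.190 per kb, above Mkx at 1.54 ± 0.0978 and below Tnmd at 5.11 ± 0.439. Comp, at 0.315 ± 0.00924, overlapped with Scx at 0.307 ± 0.00981 and was above Sox5 at 0.246 ± 0.0112. Dividing by the longest transcript in place of all exons kept the order at normal glucose. In high glucose it put Sox5, at 0.488 CPM per kb, above Comp at 0.386 and Scx at 0.307.

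**Figure D2:**
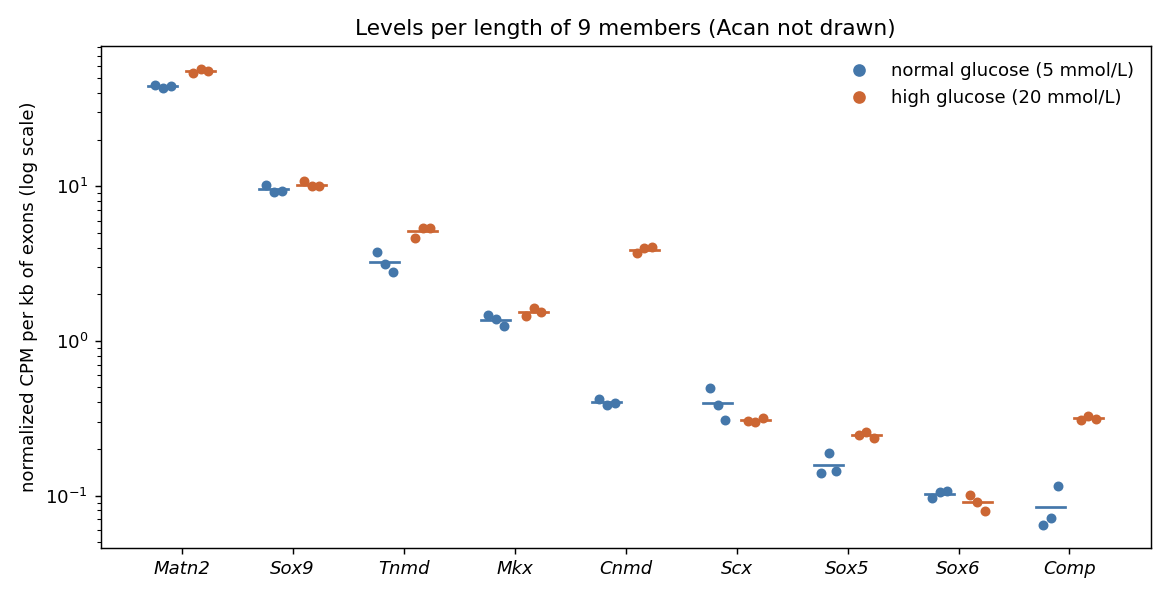
Normalized CPM per kb of exon on a log axis for 9 members, ordered by their mean at normal glucose. Points are samples and lines are group means, and Acan is not drawn because some samples had 0 counts. Cnmd lies beside Scx at normal glucose (0.400 and 0.395) and between Tnmd and Mkx at high glucose (3.90, with Tnmd at 5.11 and Mkx at 1.54).

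Across all genes, 5969 of 19015 tested genes, or 31.4%, had an adjusted p under 0.05 in edgeR's quasi-likelihood test, 3212 (16.9%) higher and 2757 (14.5%) lower at high glucose. The groups did not overlap for 5 of the members (Cnmd, Tnmd, Sox5, Comp and Matn2), as was true of 8824 genes, or 46.4% of those tested. Because the members were chosen from this comparison, nothing is read from this count. Scaling by library size alone moved the median log2 fold change of all tested genes from 0.0062 to -0.11, and the share of higher genes among the called genes from 53.8% to 27.1%. With upper quartile scaling that share was 43.5%. Without high glucose replicate 1 the fit called 2010 genes higher, and without high glucose replicate 3 it called 1988.

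Other genes of the 2 lineages and of related families were taken from 8 lists that leave out the members. These lists were written from general knowledge with earlier results of these data known, so they are no independent test. Together the lists hold 148 genes, of which 114 were tested. Among these, 46 rose and 27 fell at high glucose at an adjusted p under 0.05 in the same test. Of all tested genes, 16.9% rose and 14.5% fell, and the counts of each list below are to be read beside these shares. The median log2 fold change of the 114 genes was 0.10, beside 0.0062 for all tested genes. Library size scaling gave 36 higher and 35 lower and a median of -0.012. The median was 0.059 without the filter, 0.061 with upper quartile scaling, 0.066 without normal glucose replicate 1 and 0.063 without high glucose replicate 1.

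The cartilage matrix list held genes that rose, genes that fell and genes at the limit of detection. Of its 22 genes, 15 were tested, 7 rose, 4 fell and 4 did not pass the threshold. The median log2 fold change was 0.36, but 0.16 without the filter and 0.24 with library size scaling, without normal glucose replicate 3 or without high glucose replicate 1. Cilp, which encodes cartilage intermediate layer protein, went from 57.9, 61.2 and 62.0 normalized CPM to 182, 178 and 185, a log2 fold change of 1.59 (SE 0.052, adjusted p = 3.82e-08 in the quasi-likelihood test of edgeR). Prg4, the gene of the joint lubricant lubricin, went from 43.9, 45.2 and 43.5 CPM to 123, 129 and 135, a log2 fold change of 1.54 (SE 0.054, adjusted p = 4.12e-08 from the same edgeR test). Both rose about as much as each other in all 3 high glucose samples. Matn4, a relative of Matn2, rose by 1.38 on the log2 scale, and the collagen gene Col9a2 by 1.34 (adjusted p = 3.09e-06 and 6.01e-05 from edgeR). Epyc, a small leucine-rich proteoglycan of cartilage, fell from 2.55 ± 0.471 to 1.20 ± 0.0665 CPM (SD, n = 3), with an adjusted p of 2.69e-04 from edgeR. Vit, Matn3 and Col9a3 were the other genes called lower. Matn3 reached the test through normal glucose, where all 3 samples passed the filter of 0.0771 CPM, while 1 sample did at high glucose, so its call here and in the other lists that hold it rests on that filter.

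Several genes that define chondrocytes were almost without counts, although Col11a2 had 255 to 481 counts per sample. Col11a1 and Col27a1, also in the cartilage matrix list, were abundant, with 9660 to 11343 and 5484 to 10244 counts per sample. Col2a1, the gene of the main cartilage collagen, had between 8 and 11 counts in every sample. Snorc, Ucma, Cytl1 and Clec3a had 0 counts in all 6 samples, and Matn1 had 2 counts in 1 normal glucose sample and 0 in the rest. The 10 chondrocyte markers summed to 2.88 ± 0.564 normalized CPM at normal glucose and 3.38 ± 0.345 at high glucose (SD, n = 3), of which 86.3% was Col11a2. Of the 3 tested genes in that marker list, Matn3 had 23, 21 and 20 counts at normal glucose against 6, 5 and 12, with the limit given above, and Col11a2 and Hapln1 did not pass the threshold. Cnmd and Comp were thus higher at high glucose in samples where aggrecan and type II collagen transcripts were at or near the floor in both groups.

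Of the 18 tendon genes 15 were tested, 10 rose, 2 fell and 3 did not pass the threshold, and the median log2 fold change was 0.59. The 11 fibroblast markers had the same median of 0.59, and Dcn is in both lists. Thbs4, a thrombospondin of tendon and muscle matrix and a relative of Comp, went from 13.2, 12.3 and 13.3 to 37.1, 36.9 and 38.7 normalized CPM, a log2 fold change of 1.54 (SE 0.055, adjusted p = 4.58e-08 in the quasi-likelihood test of edgeR). Kera, which encodes the proteoglycan keratocan, went from 3.59, 4.03 and 3.49 to 6.80, 7.86 and 8.01 CPM, a log2 fold change of 1.03 (SE 0.098, adjusted p = 2.77e-05 from edgeR). Col12a1, a fibril-associated collagen gene, rose by 0.86 on the log2 scale from an already high 3130 ± 434 CPM (SD, n = 3). Fmod, Chodl, Col14a1 and Dcn were among the others that rose. Egr2, a zinc finger factor that can activate collagen genes in tendon cells, fell by 1.32 on the log2 scale (adjusted p = 3.1e-05 from edgeR), and Itgbl1 fell too. Egr1 did not pass the threshold, with a log2 fold change of 0.04.

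**Figure D3:**
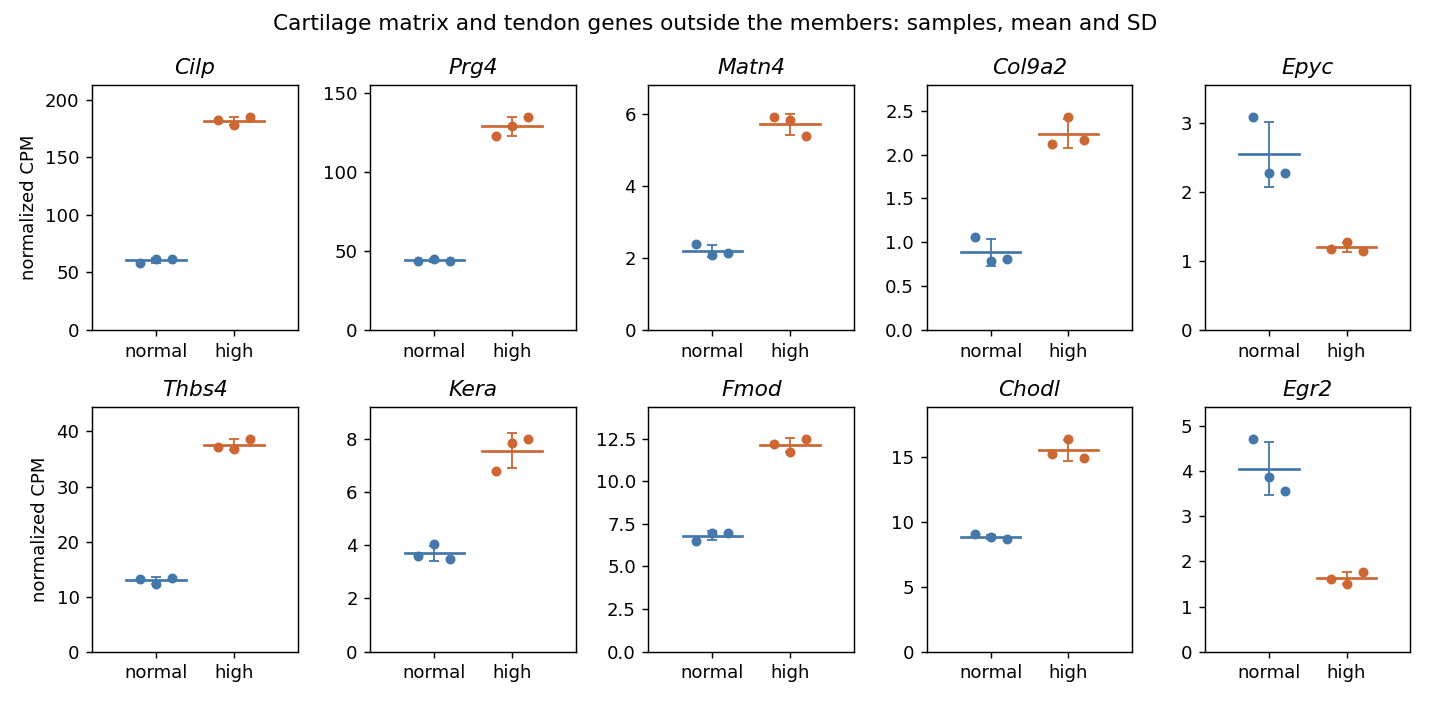
Normalized CPM of 10 cartilage matrix and tendon genes outside the members, on linear axes with a separate scale for each gene. Points are samples (normal glucose in blue, high glucose in orange), with means and SDs. Epyc and Egr2 are lower and the other 8 genes higher in all 3 high glucose samples, with Cilp going from 60.4 to 182 CPM on average.

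Regulators of chondrocytes other than the SOX trio were mixed. Of 19 genes 14 were tested, 6 rose, 1 fell and 7 did not pass the threshold, with a median log2 fold change of 0.13, or 0.016 with library size scaling. Pth1r, the receptor for parathyroid hormone and its related peptide, went from 14.2, 12.8 and 14.2 to 26.7, 24.4 and 26.3 normalized CPM (log2 fold change 0.91, SE 0.064, adjusted p = 3.47e-06 from edgeR). Zbtb20 and Trps1, which encode zinc finger repressors, had log2 rises of 0.60 and 0.32, and Bmpr1b, a BMP receptor gene, fell by 0.70. Library size scaling gave 4 higher and 4 lower genes in this list. Among the 16 genes of hypertrophy and bone, 12 were tested, 2 rose and 4 fell, and the median was -0.35, or -0.23 without high glucose replicate 1. Alpl, the gene of tissue-nonspecific alkaline phosphatase, rose by 1.05. Spp1 (osteopontin), Mmp13 (collagenase 3) and Phospho1 fell by 0.73, 0.63 and 0.62 on the log2 scale, and adjusted p values of these 4 genes lay between 1.53e-06 and 0.00138 in edgeR's quasi-likelihood test. Spp1 was abundant, at 4220 ± 140 and 2560 ± 55.4 CPM (SD, n = 3). Sost and Dlx5 had 0 counts in all samples.

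The remaining SOX family gave no common direction. Of 16 genes 9 were tested, 3 rose and 3 fell, with a median log2 fold change of 0.067 that became -0.34 without the filter, -0.15 with halved counts and -0.048 with library size scaling. It was 0.024 with upper quartile scaling, 0.032 without normal glucose replicate 1 and 0.031 without high glucose replicate 3. Without the filter or with library size scaling, 0 genes were called higher. The list also had 0 genes called higher without normal glucose replicate 2 or 3 or high glucose replicate 1 or 2. Sox7 had 4.25 ± 0.0574 normalized CPM at normal glucose and fell to 2.46 ± 0.514 (SD, n = 3), with a log2 fold change of -0.79 (SE 0.14, adjusted p = 0.00149 from edgeR). Sox11 rose by 0.42, and Sox10 and Sox2 fell by 0.36 and 0.32, on the log2 scale. Adjusted p values for these 3 genes were 0.0200, 0.0183 and 0.0485 from edgeR, close to the threshold. The call was lost for Sox11 with library size scaling, without the filter and without normal glucose replicate 2 or 3 or high glucose replicate 1 or 2, and for Sox10 without normal glucose replicate 3 or high glucose replicate 1 or 2. Sox2 lost it without the filter, with the replicate block and without any 1 of the 6 samples. Sox4 and Sox12 rose by 0.31 and 0.15 (adjusted p = 0.0219 and 0.0357 from edgeR). Both lost the call in each setting that left 0 genes of the list called higher. Per kb of exon, Sox4 had the highest level of the family, at 32.9 ± 4.19 at normal glucose and 40.7 ± 2.72 at high glucose (SD, n = 3), above Sox9. Sox1, Sox14 and Sox17 had 0 counts throughout.

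Relatives of the encoded proteins were compared family by family. Of the 28 genes 20 were tested, 8 rose, 6 fell and 6 did not pass the threshold. The median log2 fold change of 0.14 was 0.021 with library size scaling, 0.071 without normal glucose replicate 2 or without high glucose replicate 1, 0.078 without the filter, 0.083 without high glucose replicate 2 and 0.093 with upper quartile scaling. In the thrombospondin family of Comp, Thbs3 and Thbs4 rose, Thbs1 fell by 0.49 and Thbs2 did not pass the threshold. Per kb of exon Comp was the lowest of the family, and its ratio to Thbs4 was 0.0213 ± 0.00664 at normal glucose and 0.0276 ± 0.00125 at high glucose (SD, n = 3). Vcan, which encodes versican, a large proteoglycan related to aggrecan, rose from 590 ± 77.3 to 1070 ± 11.8 normalized CPM (log2 fold change 0.85, SE 0.084, adjusted p = 3.33e-05 from edgeR). Ncan and Bcan, the other relatives of Acan in the list, had at most 3 and 46 counts in any sample. Hapln3, a link protein gene, fell by 0.75. Itm2a and Itm2b, whose proteins have the BRICHOS domain that Cnmd and Tnmd share, rose by 0.24 and 0.29. Among the Irx genes, homeobox relatives of Mkx, Irx1 rose by 0.33 and Irx6 fell by 1.68 on the log2 scale, from 1.01 ± 0.126 to 0.315 ± 0.0235 CPM (SD, n = 3). Twist1 rose by 0.16 and Twist2 fell by 0.70, both bHLH genes like Scx.

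All 9 tested genes of the aggrecanase list passed the threshold, as did 31.4% of all tested genes. Aggrecanases are ADAMTS proteases that cut aggrecan and versican, and Timp3 encodes their main tissue inhibitor. Not every ADAMTS gene of the list is an established aggrecanase, as with Adamts7 and Adamts12. The 8 ADAMTS genes rose and Timp3 fell, with a list median of 0.68. Adamts15 went from 71.7, 76.4 and 79.1 to 155, 146 and 155 normalized CPM (adjusted p = 7.46e-07 from edgeR). Adamts4, Adamts12 and Adamts5 rose by 0.81, 0.72 and 0.68 on the log2 scale (adjusted p = 3.98e-06, 8.52e-04 and 4.66e-06 from edgeR). Timp3 fell from 137 ± 5.35 to 88.9 ± 1.48 CPM (SD, n = 3), or -0.63 on the log2 scale (SE 0.051, adjusted p = 9.08e-06 from edgeR). The list gave 8 higher and 1 lower with each other scaling, and 2 lower without normal glucose replicate 1. Genes of chondroitin sulfate synthesis, the sugar chain of aggrecan and versican, went both ways. All 23 were tested, 4 rose and 7 fell, and the median was 0.012, which turned negative with RLE, upper quartile and library size scaling, without the filter, in DESeq2 and with halved counts, and also without normal glucose replicate 1 (-0.089), 2 (-0.0061) or 3 (-0.0081) or high glucose replicate 2 (-0.043). The polymerase gene Chsy1 rose by 0.79, while the sulfation genes Chst13, Papss2 and Chst3 fell by 0.69, 0.56 and 0.55 on the log2 scale (adjusted p between 4.05e-06 and 0.0305 from edgeR). Chst3 was no longer past the threshold without the filter, nor without normal glucose replicate 2 or 3 or high glucose replicate 1 or 3.

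**Figure D4:**
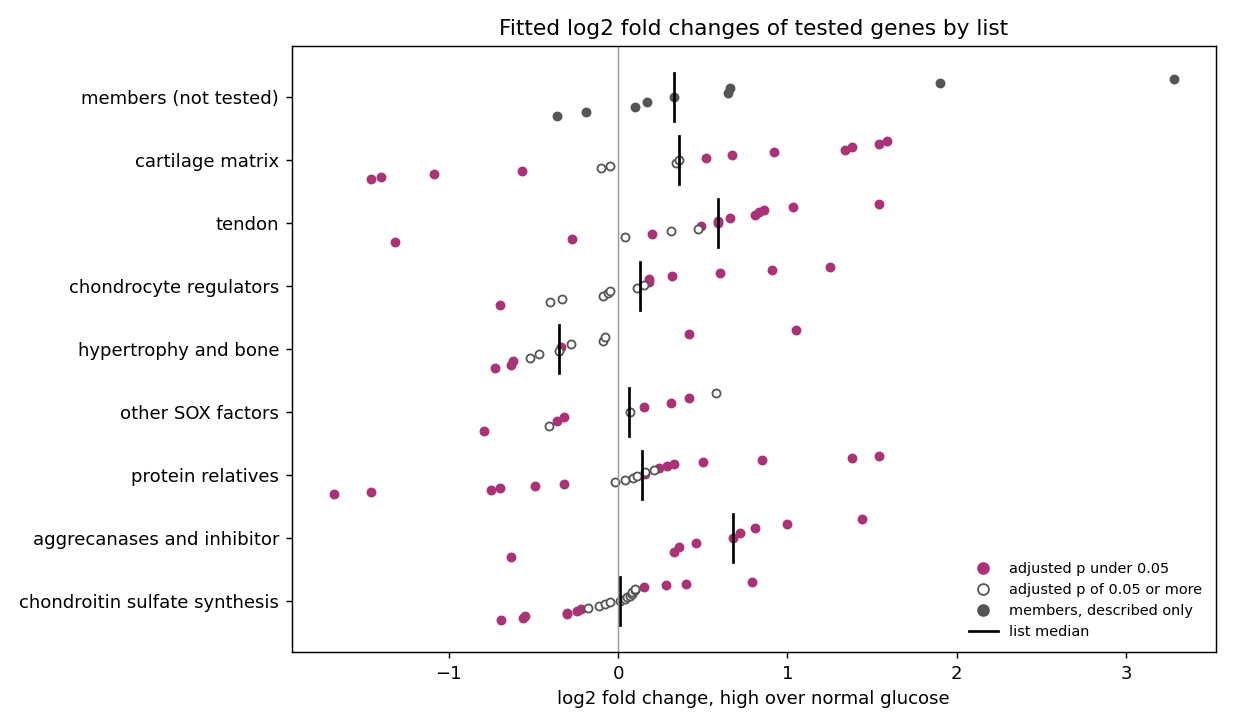
Fitted log2 fold change (high over normal glucose) of each tested gene, by list, with vertical bars at the list medians. Filled points are genes with an adjusted p under 0.05 in edgeR's test and open points are other tested genes, while the 9 members are in grey and carry no test. Genes of the tendon and aggrecanase lists lie mostly to the right of 0 (medians 0.59 and 0.68), and the bone list has a median of -0.35. Cnmd at 3.28 lies beyond all of the listed genes.

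Exons of several named genes overlap other genes, and whether counts were taken by strand is not stated. Prg4, Matn4, Epyc, Col9a3, Pth1r, Adamts4, Timp3, Chsy1, Zbtb20, Thbs1, Thbs3, Irx6, Eng, Egfl7 and Krt5 overlap a gene on the opposite strand, and Spp1, Trps1, Zbtb20, Egfl7 and Col3a1 one on the same strand. Sox4 shares 2616 of its 4795 exonic positions with Gm26735 and Twist2 shares 1477 with Gm29100, both on the opposite strand, and Phospho1 shares 1818 exonic positions with Zfp652 and 1708 with Abi3. Reads of pairs on the same strand cannot be told apart in the shared stretches. For pairs on opposite strands this holds if counts were not taken by strand.

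The genes whose profile over the 6 samples was most like that of Cnmd were sought among 12478 genes whose average log2 CPM was 1 or more. Likeness was the root mean square distance between centred log2 CPM values. Reg1, a secreted lectin-like protein gene, was nearest at 0.298, with 2.16, 1.58 and 2.09 normalized CPM at normal glucose and 25.1, 28.3 and 27.8 at high glucose. Limch1 (0.342), Vtn, the gene of vitronectin (0.350), Pi16, a fibroblast-expressed peptidase inhibitor gene (0.363), and Reg3g (0.375) followed. These 4 had log2 fold changes between 2.51 and 2.59, below the 3.28 of Cnmd and the 3.80 of Reg1. None of the 5 was in a cartilage or tendon list. The distance depends mostly on the size of the rise, and the largest in those lists was 1.59, for Cilp. Nothing is therefore read from their absence.

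Markers of other cell types moved between the groups beside these genes. Of the 11 fibroblast markers, all tested, 9 rose and 1 (Thy1) fell. Their most abundant gene, Col3a1, rose by 1.39 on the log2 scale (adjusted p = 1.43e-07 from edgeR), and the summed level was 41800, 38900 and 42000 normalized CPM at normal glucose and 73800, 76100 and 71200 at high glucose. Of 16 endothelial markers 10 were tested, 2 were called higher and 3 lower, and 1 of the 2, Erg (5, 8 and 2 counts against 14, 15 and 12), passed the filter through the high glucose samples alone. Endothelial sums were 216, 234 and 243 against 200, 194 and 200 CPM. The 6 tenocyte markers, which include the members Tnmd, Scx and Mkx, summed to 35.4, 34.0 and 33.2 against 68.8, 70.9 and 73.4 CPM, of which Thbs4 made up 48.0%. Smooth muscle and pericyte markers, 8 of 8 tested, had 1 that rose and 5 that fell, and their sums of 709, 634 and 699 against 536, 533 and 560 CPM were led by Acta2. In the skeletal muscle list 2 of 9 were tested and 1 fell, the most abundant gene Acta1, and sums were 5.32, 4.75 and 6.03 against 1.76, 1.74 and 1.81 CPM with Myod1, Myog and Myf5 at 0. Of 8 keratinocyte markers 3 were tested and 1, Krt5, was called higher, with 2 counts in each normal glucose sample against 23, 12 and 14. Krt5 passed the filter through the high glucose samples alone, so nothing is read from its call. Krt14, which was not tested, had 2, 0 and 0 counts against 35, 9 and 31. The keratinocyte sums, led by Trp63, were 4.91, 5.06 and 4.08 against 5.04, 4.66 and 4.85 CPM. Of 8 Schwann cell and melanocyte markers 6 were tested, 1 rose and 3 fell, with sums led by Mitf of 35.2, 36.1 and 34.9 against 32.8, 32.9 and 31.8 CPM. The part of a changed cell mixture in the values of the cartilage and tendon genes was not tested.

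**Figure D5:**
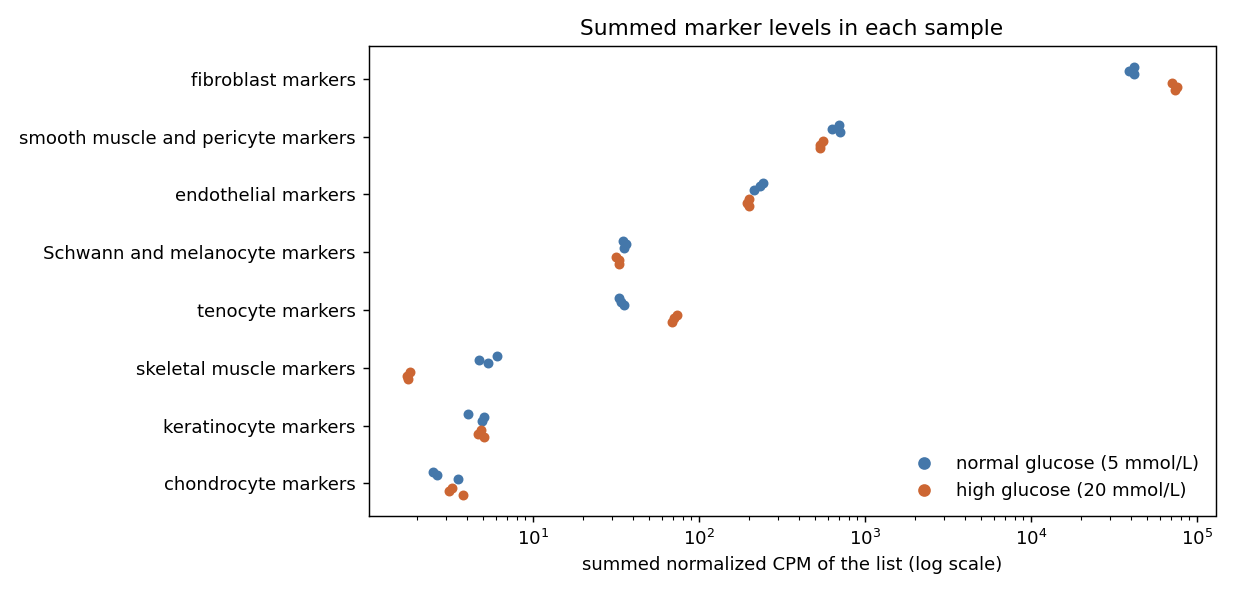
Summed normalized CPM of 8 marker lists on a log axis, 1 point per sample (normal glucose in blue, high glucose in orange). Fibroblast markers sum to between 38900 and 76100 CPM and chondrocyte markers to under 4 CPM in every sample, with tenocyte markers near 34.2 CPM at normal glucose and 71.1 CPM at high glucose.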

How the data were processed

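RNA of 6 cultures was analysed, 3 per glucose group, grouped by their labels. The authors used Trimmomatic for trimming, HISAT2 for alignment to GRCm38 and StringTie for gene counts, and they deposited these counts without normalization. Tool versions, annotation release and strand setting are not given in the sources used here. The labels name TRIzol and DNBSeq, whereas the methods name a QIAGEN kit and an Illumina instrument. Values of 2 (9280 entries) were nearly as frequent as 1 (10842), and 4 (4874) more frequent than 3 (4716), so both reads of a pair may have been counted and halved counts were tried.

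Of 55487 identifiers, 55227 had a symbol. Positions and lengths came from GENCODE for GRCm38, and promoters from RefSeq. The software was edgeR 4.0.16 under R 4.3.3. Low counts were removed by filterByExpr, with 10 as the minimum count and 15 as the minimum total. Then followed TMM scaling, the quasi-likelihood test and Benjamini-Hochberg adjustment over 19015 genes, with a threshold of 0.05. The biological coefficient of variation was 8.44%. The fit was checked on simulated data. Standard errors came from the test statistic. Replicates of a group differed by more than sampling noise. Alternatives were 3 other scalings, no filter, DESeq2 1.42.0, halved counts, a replicate block, leaving out single samples and, for levels per length, the longest transcript.

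The members and lists were chosen with earlier results of these data known. Named genes are the members, of each list up to 4 called genes with the largest change and an average log2 CPM of 0 or more, genes at or near 0 counts, and the 5 genes most like Cnmd. Other genes are named to complete counts or families and were chosen after their values were seen.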

Additional observations from a re-analysis of the deposited data

How the results depend on the processing

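All 9 tested members kept the sign of their log2 fold change under every alternative tried except Sox9, which was -0.012 with library size scaling. Ranges over all settings were 3.17 to 3.30 for Cnmd, 1.74 to 2.19 for Comp, 0.54 to 0.76 for Tnmd, 0.53 to 0.78 for Sox5, 0.22 to 0.34 for Matn2, -0.01 to 0.13 for Sox9, -0.31 to -0.12 for Sox6, -0.52 to -0.19 for Scx and 0.06 to 0.20 for Mkx. Leaving out 1 sample moved Scx to -0.19 (normal glucose replicate 1), Sox9 to 0.046 and Sox6 to -0.30 (high glucose replicate 1), Mkx to 0.102 (normal glucose replicate 3) and Sox6 to -0.12 (high glucose replicate 3). Sox9 was 0.067 without normal glucose replicate 2, and Mkx was 0.11 without high glucose replicate 2.

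Library size scaling gave 1819 genes higher and 4884 lower. It moved Cnmd to 3.17, Mkx to 0.055 and Matn2 to 0.22, and with upper quartile scaling Matn2 was 0.288. Chondrocyte regulators called lower, 1 in the reported fit, were 4 with library size scaling and 2 each with RLE, upper quartile scaling and halved counts. Other SOX factors called higher, 3 in the reported fit, were 0 with library size scaling and 0 without the filter. Chondroitin sulfate genes called lower were 11 with library size scaling, beside 7. The cause of these differences was not tested.

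With each sample left out, genes called higher ranged from 1988 to 3149. Genes called lower ranged from 2 to 5 in the cartilage matrix list, from 1 to 2 among chondrocyte regulators, from 1 to 2 among other SOX factors and from 1 to 2 among aggrecanases and their inhibitor. Other SOX factors called higher ranged from 0 to 3. Fewer samples were fitted in these cases.

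With a replicate block, 2909 genes were higher and 2418 lower. Deviations from the group mean correlated across genes, between replicates of the same number, at -0.025, 0.0038 and 0.013. Of 6 samples, 2 correlated best with the sample of their own number. These values gave no sign that the numbers pair the samples, but cannot exclude that samples of the same number shared an isolation. The calls of single genes were followed for 47 genes, picked by the rule of up to 4 called genes per list, marker lists included. Some genes named here were not among the 47, such as Sox4 and Sox12, which lost their calls in the settings given with them. Of 611 refits of the 47 genes, 31 were no longer past the threshold (of Sox2, Sox10, Sox11, Chst3, Egfl7 and Pmel). In these refits 0 changed sign, and 41 of the genes were past the threshold in all.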
